A study of Mus musculus with 39 samples.

Results

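The genes described here are 40 core components of the mouse cell cycle, chosen by symbol and read from both deposited count tables, where they are 40 of 47643 rows. They were sorted by role into 5 G1 cyclins and kinases (*Ccnd1*, *Ccnd2*, *Ccnd3*, *Cdk4* and *Cdk6*), 7 G1/S genes (*Ccne1*, *Ccne2*, *Cdk2*, *Cdc25a*, *E2f1*, *E2f2* and *E2f3*), 3 brakes (*Rb1*, *Rbl1* and *Cdkn1b*), 10 genes of replication licensing and S phase (*Mcm2* to *Mcm7*, *Cdc6*, *Cdt1*, *Gmnn* and *Pcna*), 7 G2/M genes (*Ccna2*, *Ccnb1*, *Ccnb2*, *Cdk1*, *Cdc25b*, *Top2a* and *Mki67*) and 8 genes of mitosis and its spindle checkpoint (*Aurka*, *Aurkb*, *Plk1*, *Birc5*, *Bub1*, *Bub1b*, *Mad2l1* and *Cdc20*). They were read in a study of what the transcription factor STAT3 does while the postimplantation mouse epiblast grows. Bulk RNA-seq had been made from 35 single epiblasts and from 4 lines of epiblast stem cells (EpiSCs). Epiblasts at embryonic day (E) 5.5 came from 2 wild-type (WT) and 4 *Stat3* null embryos, those at E6.5 from 9 WT and 8 null, and those at E7.5 from 9 WT and 3 null, and the EpiSCs were 2 WT lines (8 and 13) and 2 null lines (2 and 6). All embryos were offspring of heterozygous parents on the CD1 background, every null cell carried the same germline allele, in which a neomycin resistance gene replaces some of the exons, and the EpiSC lines were kept in N2B27 with FGF2, activin A and the Wnt pathway inhibitor XAV-939. Each epiblast had been freed by hand of extraembryonic ectoderm and visceral endoderm, so its purity rests on dissection.

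A dividing cell passes G1, replicates its DNA in S phase, and separates the copies in mitosis. D-type cyclins with CDK4 or CDK6 relieve the brake that RB1 and its relative p107 (*Rbl1*) hold on E2F factors, and cyclin E with CDK2 then starts replication at origins that CDC6 and CDT1 have loaded with the MCM2-7 helicase, while geminin (*Gmnn*) stops a second loading. Cyclins A and B with CDK1 take the cell into mitosis, where Aurora kinases, PLK1 and the checkpoint proteins BUB1, BUBR1 (*Bub1b*) and MAD2 govern the spindle. The mouse epiblast is known for very short cycles with brief G1 around gastrulation.

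Many of these genes are known targets of E2F complexes or of the DREAM and MuvB complexes, which meet DNA at E2F sites and at cell cycle homology regions (CHR). Promoter windows reaching from 250 bases before to 50 after the start were found for 32 of the 40 genes in RefSeq (build GRCm38.p6). The letters TTTNNCGC, an E2F motif, stood on either strand in 13 of the 32 windows and in 5.17% of all 32851 windows of that length. They were in 6 of the 8 windows of licensing and S phase genes and in 0 of the 7 of mitosis genes. TTTGAA, the CHR motif, stood in 10 of the 32 (17.89% of all windows), in 4 of 6 windows of G2/M genes and in 4 of 7 of mitosis genes. CCAAT, which nuclear factor Y binds, stood in 22 (37.41% of all), among them all 6 G2/M windows. These matches describe letters and not binding, and the motifs were counted separately, overlaps included. The windows of 4 members whose mRNA changed between WT stages are shown because they hold the 2 kinds of motif. Other members that changed did not: *Mcm2* and *Pcna* had 0 matches to TTTNNCGC, and for *Ccnd1* and *Ccnd2* no window was found. Capitals mark TTTNNCGC and CCAAT in *Mcm3* (chr1:20820263-20820562, minus strand) and *Mcm5* (chr8:75109259-75109558, plus strand), and TTTGAA and CCAAT in *Ccnb2* (chr9:70421505-70421804, minus strand) and *Top2a* (chr11:99024140-99024439, minus strand); each window is printed on the strand of its gene and a motif of the other strand is capitalised in place.
*Mcm3*: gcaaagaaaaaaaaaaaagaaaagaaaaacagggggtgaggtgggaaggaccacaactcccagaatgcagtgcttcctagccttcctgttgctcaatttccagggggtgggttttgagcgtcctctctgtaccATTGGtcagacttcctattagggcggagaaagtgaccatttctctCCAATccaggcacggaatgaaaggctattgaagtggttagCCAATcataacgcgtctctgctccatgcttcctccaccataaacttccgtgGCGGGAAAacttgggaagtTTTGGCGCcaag
*Mcm5*: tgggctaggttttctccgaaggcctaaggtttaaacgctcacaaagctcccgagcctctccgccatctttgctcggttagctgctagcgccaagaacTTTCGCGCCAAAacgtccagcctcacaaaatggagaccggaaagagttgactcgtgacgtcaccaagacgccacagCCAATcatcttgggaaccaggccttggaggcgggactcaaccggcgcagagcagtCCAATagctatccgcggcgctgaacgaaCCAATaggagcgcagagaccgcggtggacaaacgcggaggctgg
*Ccnb2*: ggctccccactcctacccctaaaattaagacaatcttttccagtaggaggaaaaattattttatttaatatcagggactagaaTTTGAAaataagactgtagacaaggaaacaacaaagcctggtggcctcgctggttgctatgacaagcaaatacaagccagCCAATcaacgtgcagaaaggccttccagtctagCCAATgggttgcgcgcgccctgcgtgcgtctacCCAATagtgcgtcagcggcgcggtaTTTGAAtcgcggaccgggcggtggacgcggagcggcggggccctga
*Top2a*: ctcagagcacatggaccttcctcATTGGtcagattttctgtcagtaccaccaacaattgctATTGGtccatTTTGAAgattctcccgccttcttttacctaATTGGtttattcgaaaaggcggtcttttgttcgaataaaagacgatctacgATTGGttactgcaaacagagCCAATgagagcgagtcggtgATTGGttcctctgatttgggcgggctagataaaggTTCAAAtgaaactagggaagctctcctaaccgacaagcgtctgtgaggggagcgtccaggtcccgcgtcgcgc

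Total counts lay between 22941210 and 79013960 in epiblast libraries and between 63445877 and 127583699 in EpiSC libraries. Levels are given as CPM, counts scaled to the size of each library with TMM factors. *Stat3* itself was counted at 1.22 to 1.496 CPM in E7.5 null epiblasts against 4.63 to 24.3 in WT, and at 1.43 to 8.10 against 5.66 to 28.9 at E6.5, 9.33 to 22.7 against 39.2 to 51.1 at E5.5 and 3.14 to 3.52 against 18.1 to 22.9 in EpiSCs, exons outside the replaced part being counted too. E5.5 null 1 had *Pou5f1*, which defines the epiblast, at 0.662 CPM against at least 99.3 in the other libraries of its stage, which goes against its label as epiblast, and E6.5 null 1 had 8 summed extraembryonic ectoderm markers at 987 CPM against at most 57.1 elsewhere at E6.5. At E5.5 these 8 markers summed to 1148, 352, 53.9 and 328 CPM in null 1, 2, 3 and 4, and to 366 and 37.9 in WT 1 and 2. E7.5 WT 3 had the primitive streak gene *T* at 5.53 CPM and 8 summed epiblast markers at 6088, against at most 3019 in the other E7.5 WT libraries. The 9 visceral endoderm markers summed to 5123 to 6438 CPM in E5.5 WT and 26.7 to 10550.0 in E5.5 null, 46.1 to 5245 and 99.3 to 6026 at E6.5, and 373 to 3973 and 35.7 to 235 at E7.5, with E6.5 WT 3 the highest E6.5 WT library. Their part in the results below was not tested beyond the values given there. In bulk samples, fewer cells in a phase and less mRNA per cell cannot be told apart.

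All 40 genes passed the filter on low counts in every comparison, so counts below are out of 40, and a count of 0 occurred only for *Ccnd2* in E5.5 null 1 and *E2f2* in E6.5 null 3. The annotation holds a near-identical copy of *Ccnd3*, *Mcm7*, *Cdc6*, *Pcna* and *Cdc20* and 3 of *Ccnb1*, and genes on the other strand overlap *Ccnd1*, *Ccnd2*, *Rb1* and others, so that reads of these could be shared, the strand setting of the counting not being given in the sources used here. Their summed level was 6600.0 ± 13.5 CPM (SD, n = 2) in E5.5 WT, 7581 ± 369.6 (SD, n = 9) in E6.5 WT, 7158 ± 139.7 (SD, n = 9) in E7.5 WT and 7376 ± 309 (SD, n = 2) in WT EpiSCs. The means of the 3 WT stages lay within 1.5-fold of each other for 31 of the 40 genes and within 2-fold for 38, and the exceptions were *Ccnd1* at 3.19-fold and *Ccnd2* at 104-fold. Per kilobase of exon, the highest member of E6.5 WT epiblasts was the helicase subunit *Mcm3* at 157 ± 18.9 CPM per kb (SD, n = 9), followed by *Mcm7* at 109 ± 3.77 and *Mcm4* at 101 ± 13.7, of which the last 2 overlapped in range. The 6 helicase subunits spanned 76.0 to 157 CPM per kb. *Rb1* at 0.982 ± 0.459, *Ccnd2* at 1.39 ± 0.609, *Cdk6* at 1.53 ± 0.946 and *E2f2* at 1.77 ± 0.797 CPM per kb were the lowest and overlapped each other. *Cdk4* took 98.2 ± 1.34% (SD, n = 9) of the mRNA per kb of the 2 kinases that partner D cyclins. The spread between libraries of a group, as the coefficient of variation, had a median over the 40 genes of 13.04% in E6.5 WT, 18.1% in E6.5 null, 7.41% in E7.5 null and 10.7% in E7.5 WT libraries.

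Cyclins D1 and D2 changed most between the WT stages. Cyclin D1 (*Ccnd1*, chr7:144929931-144939925, GRCm38) and cyclin D2 (*Ccnd2*, chr6:127125162-127152193) rose from E5.5 to E6.5, *Ccnd2* rose again to E7.5 while *Ccnd1* fell, and cyclin D3 (*Ccnd3*, chr17:47505051-47599691) passed in neither step. *Ccnd1* stood at 38.6 and 70.5 CPM in the 2 E5.5 WT epiblasts, 118 to 225 (median 182) in the 9 of E6.5 and 101 to 172 (median 130.2) in the 9 of E7.5. Every E6.5 WT library lay above both E5.5 WT libraries, while E6.5 and E7.5 overlapped. *Ccnd2* stood at 1.48 and 1.86 CPM at E5.5, 5.24 to 20.2 (median 12.1) at E6.5 and 20.7 to 265 (median 187) at E7.5. The 3 stages did not overlap, although the lowest E7.5 library, WT 3, at 20.7 lay just above the highest of E6.5, and the next lowest was at 133. *Ccnd3* stood at 51.9 to 86.5 CPM at E5.5, 59.1 to 94.7 at E6.5 and 58.4 to 90.3 at E7.5, with overlap. Taken per kilobase, *Ccnd2* made up 0.900 ± 0.0518% of D-type cyclin mRNA at E5.5 (SD, n = 2), 2.93 ± 1.06% at E6.5 and 33.05 ± 10.9% at E7.5 (SD, n = 9 each), and the 3 genes together 19.6 ± 2.03, 46.4 ± 7.22 and 54.4 ± 9.93 CPM per kb.

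**Figure D1:**
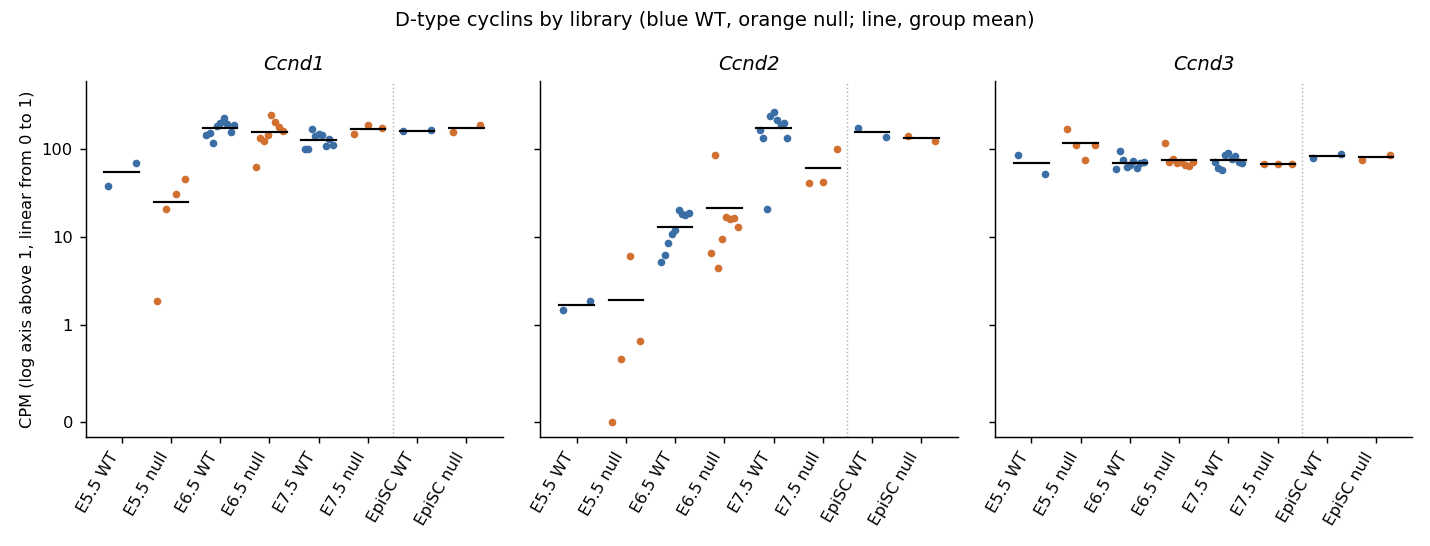
CPM of *Ccnd1*, *Ccnd2* and *Ccnd3* in each of the 39 libraries on a vertical axis that is logarithmic above 1 and linear from 0 to 1, by group on the horizontal axis (points, libraries; lines, group means; blue WT, orange null); epiblasts and EpiSCs, parted by the dotted line, came from different kits. *Ccnd2* climbs from 1.48 and 1.86 in E5.5 WT to 20.7 to 265 in E7.5 WT, with the E7.5 null epiblasts at 41.7, 42.4 and 102.

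**Figure D2:**
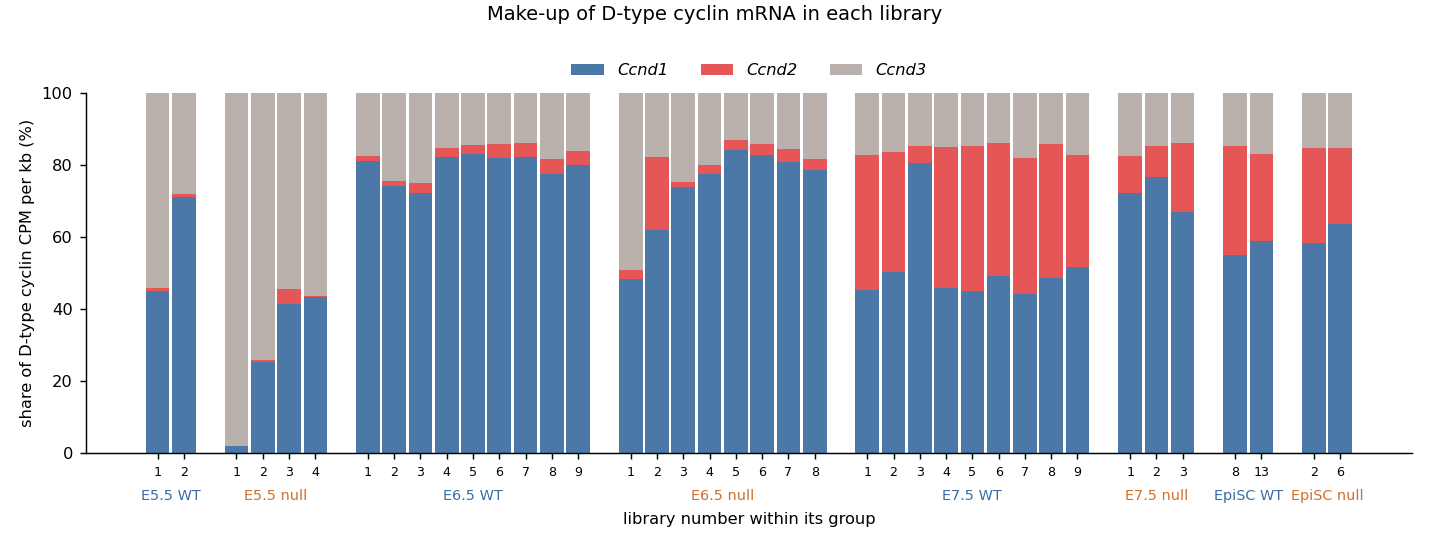
Share of each D-type cyclin in the summed CPM per kb of the 3 genes (vertical axis, %), with 1 bar for each library, grouped on the horizontal axis by stage and genotype. *Ccnd2* takes 4.86 to 40.2% in the 9 WT libraries of E7.5 and 8.61 to 19.3% in the 3 null ones.

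Between E5.5 and E6.5 WT epiblasts, 6 of the 40 genes passed the test and all were higher at E6.5, against 5.15% of all 20763 genes tested that were higher and 4.09% lower. They were 2 of the 5 G1 cyclins and kinases, 3 of the 10 licensing and S phase genes and 1 of the 8 mitosis genes. *Ccnd1* rose by a log2 fold change of 1.70 (SE 0.27, adjusted p = 0.0028) and *Ccnd2* by 2.997 (SE 0.60, adjusted p = 0.00862) (quasi-likelihood test of edgeR, p adjusted by Benjamini-Hochberg over all genes tested, as everywhere below). *Mcm3* stood at 314 and 460.4 CPM at E5.5 and 486 to 699 (median 598) at E6.5, and its log2 fold change was 0.62 (SE 0.16, adjusted p = 0.0248). *Pcna*, the sliding clamp of the replication fork, stood at 118 and 162 CPM at E5.5 and 173 to 225 (median 208) at E6.5, a log2 fold change of 0.55 (SE 0.14, adjusted p = 0.0244). *Bub1b* stood at 156 and 169 CPM at E5.5 and 196 to 281 (median 226) at E6.5, a log2 fold change of 0.50 (SE 0.12, adjusted p = 0.0208). In these 3 genes every E6.5 library was above both E5.5 libraries, as it was in 7 of the 40, while 0 lay wholly below, where 8.28% of all genes tested lay wholly above and 8.62% wholly below. The last of the 6 was *Mcm5* (log2 fold change 0.42, adjusted p = 0.0359). The other 4 helicase subunits had log2 fold changes of 0.30 to 0.47 that did not pass, and the median of the 10 licensing and S phase genes was 0.38 against 0.10 over all genes. None of the 7 G2/M genes passed (log2 fold changes -0.16 to 0.32). Of a wider list of 99 replication, mitosis and regulator genes, 8 rose and 2 fell, among them *Pold1*, the catalytic subunit of DNA polymerase delta (log2 fold change 0.82), DNA ligase *Lig1* (0.54) and condensin subunit *Ncapd2* (0.69) upwards, and *E2f8* (-0.70) and *Mybl2* (-0.78) downwards. The comparison rests on 2 E5.5 epiblasts: without E5.5 WT 1 no member passed, 10 did without E6.5 WT 3, the WT library of its stage with most visceral endoderm markers (with 7.99% of all genes tested higher and 9.18% lower), and without E6.5 WT 5, 6, 7, 8 or 9 only 2 or 3 did, *Ccnd1* and *Ccnd2* always among them. Of all genes tested, 73 were higher and 43 lower without E5.5 WT 1. Without E6.5 WT 5, 6, 7, 8 or 9, 639 to 679 were higher and 658 to 682 lower. With the visceral endoderm markers as a covariate, added after the data were seen, only *Ccnd1* passed among the 40 (log2 fold change 1.202, adjusted p = 0.0343). In that fit 289 of all 20763 genes tested were higher and 100 lower. These markers summed to 5123 and 6438 CPM in E5.5 WT and 46.1 to 5245 (median 153) in E6.5 WT. Only E6.5 WT 3 reached the E5.5 range, so the covariate went largely with stage and the fit can hardly tell them apart. Epiblast markers summed to 2655 and 4061 CPM in E5.5 WT and 4656 to 7681 (median 6272) in E6.5 WT, without overlap. Their part was not tested.

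From E6.5 to E7.5, several replication and G1/S genes fell in WT epiblasts while cyclins D2, E2 and B2 rose. In 13 of the 40 genes the test was passed, with 4 higher and 9 lower at E7.5, where 12.7% of all 17191 genes tested were higher and 12.3% lower. Tissue markers moved with the step: in WT, visceral endoderm markers summed to 46.1 to 5245 (median 153) CPM at E6.5 and 373 to 3973 (median 1485) at E7.5, epiblast markers to 4656 to 7681 (median 6272) and 1098 to 6088 (median 1920.0), and neuroectoderm markers to 0.328 to 13.9 (median 3.05) and 5.56 to 61.4 (median 29.9). With the visceral endoderm markers as a covariate 5 members were higher and 4 lower (10.5% of all genes tested higher and 11% lower), and *Mcm3*, *Mcm5*, *Pcna*, *Cdc25a*, *Rbl1* and *Ccnd1* no longer passed, while the part of the other markers was not tested. Without the covariate, lower were 5 of the 10 licensing and S phase genes (*Mcm2*, *Mcm3*, *Mcm5*, *Cdt1* and *Pcna*), 2 of the 7 G1/S genes (*Ccne1* and *Cdc25a*), *Top2a* and *Ccnd1*, and higher were *Ccnd2*, *Ccne2*, *Rbl1* and *Ccnb2*. No mitosis gene passed (log2 fold changes -0.16 to 0.03). *Ccnd2* had a log2 fold change of 3.74 (SE 0.41, adjusted p = 1.06e-05), and the other 12 lay between -0.62 and 0.65. Cyclin B2 (*Ccnb2*) stood at 32.9 to 46.8 (median 35.3) CPM at E6.5 and 47.2 to 64.0 (median 57.6) at E7.5, without overlap (log2 fold change 0.62, SE 0.09, adjusted p = 3.77e-05). It and *Ccnd2* were the 2 members that lay wholly above E6.5, and 0 lay wholly below, where 1.24% of all genes tested lay above and 1.15% below. *Rbl1* stood at 18.7 to 28.6 (median 23.6) CPM at E6.5 and 20.5 to 38.96 (median 32.1) at E7.5, with overlap (log2 fold change 0.48, SE 0.12, adjusted p = 0.00387). Both E cyclins, which activate CDK2, passed in opposite directions. *Ccne1* (chr7:38097984-38107534) stood at 106 to 235 (median 184) CPM at E6.5 and 97.2 to 167 (median 106) at E7.5, a log2 fold change of -0.62 (SE 0.12, adjusted p = 0.000777). *Ccne2* stood at 6.74 to 23.3 (median 18.1) CPM at E6.5 and 19.1 to 32.9 (median 26.9) at E7.5, a log2 fold change of 0.65 (SE 0.17, adjusted p = 0.00581). Both overlapped between the stages, and *Ccne1* still made up 84.3 ± 3.13% of E cyclin mRNA per kb at E7.5 against 93.0 ± 1.29% at E6.5 (SD, n = 9 each).

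Among the lower genes, topoisomerase II alpha (*Top2a*), which untangles replicated DNA, stood at 803 to 976 (median 878) CPM at E6.5 and 657 to 847 (median 732) at E7.5 (log2 fold change -0.25, SE 0.05, adjusted p = 0.000388). *Mcm2* stood at 406 to 600.2 (median 545) CPM at E6.5 and 394 to 495 (median 419.9) at E7.5 (log2 fold change -0.32, SE 0.07, adjusted p = 0.00123). *Mcm3* (chr1:20802968-20820312) stood at 486 to 699 (median 598) CPM at E6.5 and 468 to 529 (median 490.1) at E7.5 (log2 fold change -0.23, SE 0.06, adjusted p = 0.00657). The phosphatase *Cdc25a*, which activates CDK2, stood at 103 to 139 (median 121) CPM at E6.5 and 92.3 to 119 (median 101) at E7.5 (log2 fold change -0.24, SE 0.06, adjusted p = 0.00654). In all 4 the stages overlapped, with E7.5 WT 3 the highest of its group. The rest were *Cdt1* (-0.24), *Ccnd1* (-0.42), *Mcm5* (-0.19) and *Pcna* (-0.16, adjusted p = 0.0477), and *Pcna* passed in only 8 of its 27 alternatives. Of the wider list, 8 of 97 tested rose and 21 fell, 7 of the latter being among 18 origin and helicase genes, of which 0 rose. The lower genes with the smallest p were the repressive E2F factor *E2f4* (-0.59), condensin subunit *Ncapg* (-0.38) and clamp loader subunit *Rfc5* (-0.42), and the higher ones were *Cdkn1c*, the CDK inhibitor p57 (2.202), ribonucleotide reductase subunit *Rrm1* (0.28) and *E2f5* (0.60). Without the 3 E6.5 WT libraries of over 40000000 counts, 5 members were higher and 12 lower, with 16.7% of all genes tested higher and 13.1% lower.

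**Figure D3:**
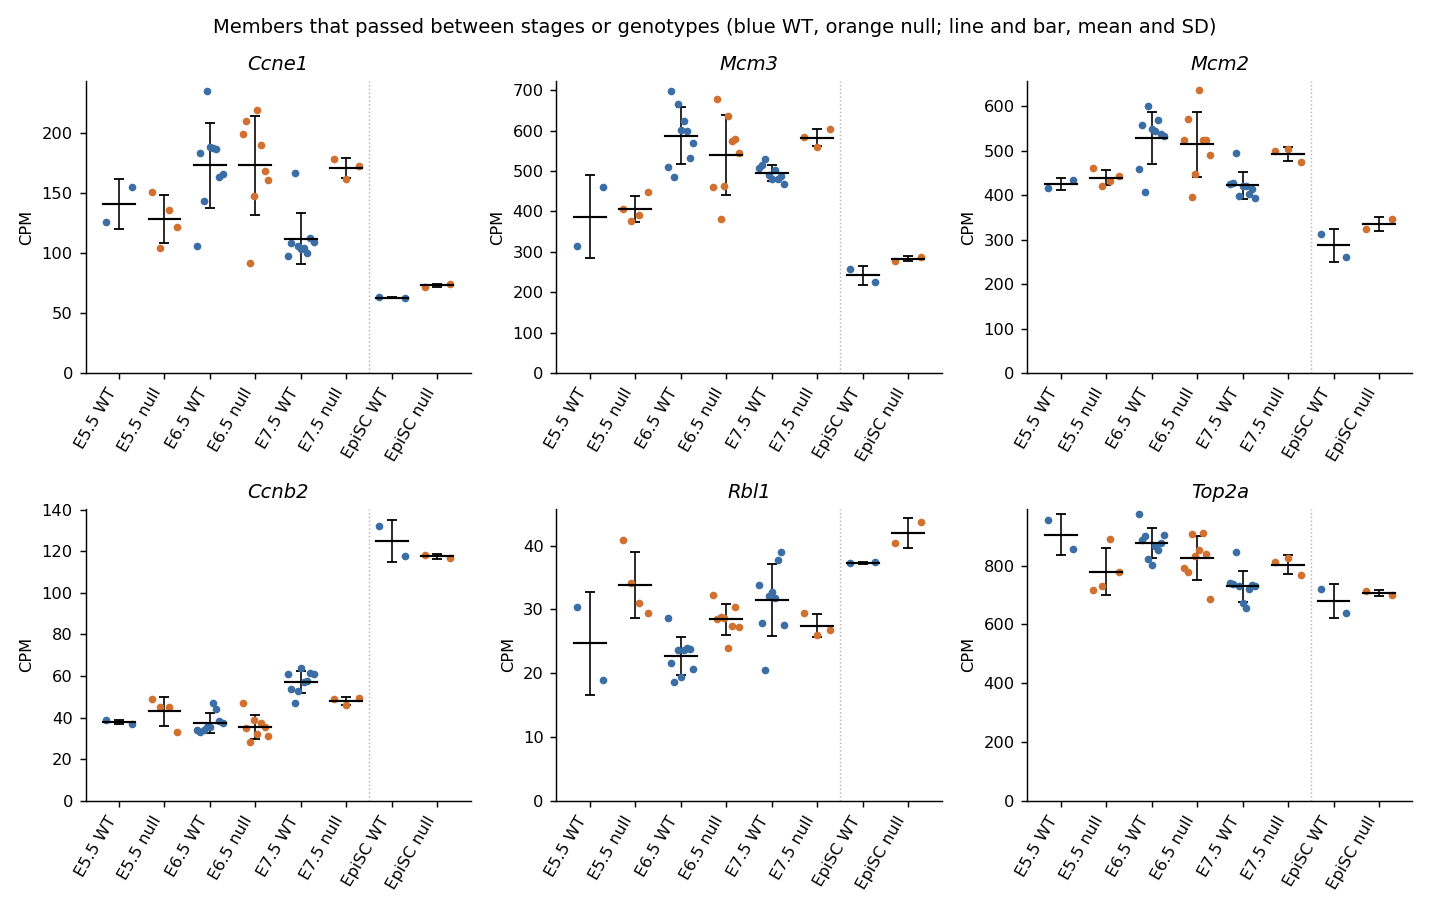
CPM of *Ccne1*, *Mcm3*, *Mcm2*, *Ccnb2*, *Rbl1* and *Top2a* in each library (vertical axes from 0), by group on the horizontal axis (points, libraries; lines and bars, mean and SD; blue WT, orange null). *Ccne1* lies at 162 to 178 in the 3 E7.5 null epiblasts, and at 97.2 to 167 in E7.5 WT, where WT 3 is the highest.

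The same steps were tested in *Stat3* null epiblasts. From E5.5 to E6.5, *Ccnd1* alone of the 40 passed, higher at E6.5, where 2.46% of all 18352 genes tested were higher and 1.31% lower. It stood at 1.88, 20.7, 31.1 and 46.4 CPM in the 4 E5.5 null libraries and 62.1 to 248 (median 154) in the 8 of E6.5, without overlap, a log2 fold change of 2.62 (SE 0.64, adjusted p = 0.044). The lowest value was that of E5.5 null 1, the library without *Pou5f1*, and the log2 fold change without that library was 2.27 (adjusted p = 0.00671). *Ccnd1* no longer passed in 10 of its 21 alternatives, among them leaving out E5.5 null 2 or 4 or E6.5 null 4, 5, 6, 7 or 8. The number of members called depended on the tool: DESeq2 called 6 in this step and 7 in the WT step, sample quality weights 10 and 9, and 1 fit of all 35 epiblast libraries 10 and 4. The number over all genes tested moved too. DESeq2 called 1122 higher and 683 lower of 18352 in this step, and 1743 and 1479 of 20763 in the WT step. Weights called 1449 and 2105 in this step, and 1139 and 2277 in the WT step. The pooled fit called 1665 and 1136 of 24126, and 605 and 831. Next by p in edgeR were *Mcm7*, at 346, 353, 360.2 and 396 CPM at E5.5 and 404 to 508 (median 445) at E6.5 (log2 fold change 0.30, SE 0.08, adjusted p = 0.0556), and *Ccnd3*, at 171, 112, 76.1 and 112 CPM at E5.5 and 64.6 to 118 (median 71.1) at E6.5 (log2 fold change -0.65, SE 0.20, adjusted p = 0.0857), and neither passed, the stages overlapping in *Ccnd3* and not in *Mcm7*. *Ccnd2* stood at 0, 0.645, 6.11 and 0.836 CPM at E5.5, where the 0 of null 1 allows up to 0.0828 CPM (3 counts, counting error only), and at 4.41 to 86.4 (median 14.4) at E6.5, with null 2 the highest, and its log2 fold change of 3.45 had a standard error of 1.23. In the wider list *Cenpf* (0.49), *E2f7* (0.80) and *Ncapd2* (0.51) rose and 0 of 99 fell. From E6.5 to E7.5 none of the 40 passed in the null with edgeR, where 0.113% of all 19460 genes tested were higher and 0.036% lower. In edgeR 5 of the 40 had an unadjusted p under 0.05, as had 1582 of all genes tested. DESeq2 called *Ccnd2* of the 40, with 118 of all genes tested higher and 275 lower. The 3 smallest p-values belonged to *Ccnb2*, at 28.1 to 47.0 (median 35.03) CPM and then 49.1, 46.0 and 49.3 (log2 fold change 0.44, SE 0.16, adjusted p = 0.462), *Cdc25a*, at 123 to 154 (median 133) and 98.5, 114 and 119 (log2 fold change -0.27, SE 0.10, adjusted p = 0.481), and *Cdt1*, at 81.7 to 150.0 (median 105) and 79.7, 87.6 and 76.3 (log2 fold change -0.41, SE 0.16, adjusted p = 0.494). *Ccnb2* overlapped between the stages only through E6.5 null 1, *Cdc25a* did not overlap and *Cdt1* did. Whether the genotypes differ in the step from E6.5 to E7.5 is tested below, and for the step from E5.5 to E6.5 that difference was not tested.

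Between genotypes, no member passed at E5.5 or E6.5. At E5.5 none of the 40 passed with edgeR or DESeq2 and 0 had an unadjusted p under 0.05 in edgeR. Of all 18690 genes edgeR called 0.0% in either direction and gave 467 such a p, and DESeq2 called 9 genes higher and 6 lower. The smallest p-values belonged to *Ccnd3*, at 171, 112, 76.1 and 112 CPM in null and 86.5 and 51.9 in WT (log2 fold change 0.78, SE 0.36, adjusted p = 0.999), *E2f1*, at 32.4, 21.4, 23.2 and 27.1 in null and 14.2 and 20.1 in WT (log2 fold change 0.61, SE 0.29, adjusted p = 0.999), and *Mcm4*, at 432, 314, 290.3 and 359 in null and 224 and 307 in WT (log2 fold change 0.41, SE 0.21, adjusted p = 0.999). The genotypes overlapped in *Ccnd3* and *Mcm4* and not in *E2f1*, and the highest value of all 3 genes was that of E5.5 null 1. At E6.5 none of the 40 passed with edgeR or DESeq2. In edgeR 6 of them had an unadjusted p under 0.05, as had 1414 of all 17095 genes. Of all genes edgeR called 0.0%, while DESeq2 called 39 genes higher and 36 lower. *Cdc6*, the origin licensing ATPase, stood at 81.8 to 136 (median 102) CPM in null and 66.3 to 119.9 (median 75.8) in WT (log2 fold change 0.40, SE 0.12, adjusted p = 0.42). *Aurkb*, the kinase of the chromosomal passenger complex, stood at 48.6 to 67.7 (median 59.4) CPM in null and 63.9 to 99.3 (median 71.9) in WT (log2 fold change -0.31, SE 0.10, adjusted p = 0.42). *Rbl1* stood at 23.9 to 32.3 (median 28.6) CPM in null and 18.7 to 28.6 (median 23.6) in WT (log2 fold change 0.34, SE 0.11, adjusted p = 0.43). These 3 failed the test, and all 40 genes overlapped between the genotypes. The median log2 fold change of the 40 was -0.04 against -0.01 over all genes. Within the libraries under 40000000 counts (5 null and 6 WT) the median was -0.05 and within those over it (3 and 3) -0.01, and none of the 40 passed in either.

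At E7.5, cyclin E1 and 1 subunit of the MCM helicase were higher in null than in WT epiblasts. *Ccne1* and *Mcm3* passed, both higher, against 0.767% of all 19680 genes tested that were higher and 1.35% lower. *Ccne1* stood at 178, 162 and 172 CPM in the 3 null epiblasts and 97.2 to 167 (median 106) in the 9 WT, a log2 fold change of 0.63 (SE 0.13, adjusted p = 0.033). WT 3, at 167, lay within the null range, and the other 8 WT lay below it. *Mcm3* stood at 586, 561 and 603 CPM in null and 468 to 529 (median 490.1) in WT, without overlap, a log2 fold change of 0.25 (SE 0.05, adjusted p = 0.0337). *Mcm2*, with the next p, stood at 499.7, 504 and 474 CPM in null and 394 to 495 (median 419.9) in WT and did not pass (log2 fold change 0.24, SE 0.07, adjusted p = 0.0636). Log2 fold changes were above 0 in 9 of the 10 licensing and S phase genes, with a median of 0.15. They were above 0 in 7 of the 8 mitosis genes (median 0.06) and 3 of the 7 G2/M genes (median -0.001). In the wider list this held for 23 of 25 replication fork and nucleotide genes (median 0.12). It held for only 15 of its 34 mitosis genes (median -0.01). The median over all genes was -0.02. *Mcm3* and *Mcm5* were the members that lay wholly above WT, and 0 lay wholly below, where 1.83% of all genes tested lay above and 2.09% below. In the wider list, *E2f4* passed of 98 tested, higher in null (log2 fold change 0.43, SE 0.11, adjusted p = 0.0483). *Ccnd2* stood at 41.7, 42.4 and 102 CPM in null against 20.7 to 265 (median 187) in WT, and its log2 fold change of -1.47 (SE 0.61, adjusted p = 0.215) did not pass. Per kilobase it made up 12.7 ± 5.79% of D-type cyclin mRNA in null (SD, n = 3) and 33.05 ± 10.9% in WT (SD, n = 9).

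Which members passed at E7.5 depended on single libraries, among them E7.5 WT 3, the library with low *T*. Without it 10 of the 40 passed, 8 higher in null and 2 lower, with 7.06% of all genes tested higher and 7.34% lower. The higher ones were *Ccne1* (log2 fold change 0.72, adjusted p = 5.15e-06), *Mcm2*, *Mcm3*, *Mcm5*, *Ccnd1*, *Top2a*, *Ccna2* and *Bub1*, and the lower ones *Ccnd2* (log2 fold change -1.62, adjusted p = 0.00926) and *Ccnb2* (log2 fold change -0.26, adjusted p = 0.0483). Without E7.5 WT 2 or WT 9 *Ccne1* and *Mcm3* still passed, and without E7.5 WT 1, 4, 5, 6, 7 or 8 or any of the 3 null libraries 0 did in edgeR. In the fits where 0 passed, 0 to 25 of all genes tested were higher and 0 to 78 lower. DESeq2 on all 12 libraries called *Ccne1*, *Mcm3* and *Mcm2*, with 520 of all 19680 genes tested higher and 1325 lower. The genotypes also differed in tissue markers: visceral endoderm markers summed to 35.7 to 235 CPM in null and 373 to 3973 in WT, without overlap and with all 9 detected in both, and extraembryonic ectoderm markers to 7.23 to 18.2 and 5.38 to 113. Epiblast markers summed to 4384 to 6114 CPM in null and 1098 to 6088 in WT, neuroectoderm markers to 6.04 to 8.998 and 5.56 to 61.4, and mesoderm and primitive streak markers to 439.5 to 772 and 224 to 482, and their part in the result was not tested. The streak gene *T*, a member of the last set, had the lower median in null, unlike the sum. It stood at 51.4, 71.4 and 170 CPM in null and 5.53 to 228 (median 178) in WT, with overlap. With the visceral endoderm markers as a covariate none of the 40 passed and *Ccne1* had a log2 fold change of 0.24. In that fit 0 of all 19680 genes tested passed in either direction. Since the marker sums did not overlap between the genotypes, the fit cannot tell the markers from genotype. Depth differed as well: total counts were 37143484 to 41655234 in E7.5 null libraries. They were 39477197 in E7.5 WT 3 and 25793920 to 36002498 in the other E7.5 WT libraries. The part of depth in this comparison was not tested.

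**Figure D4:**
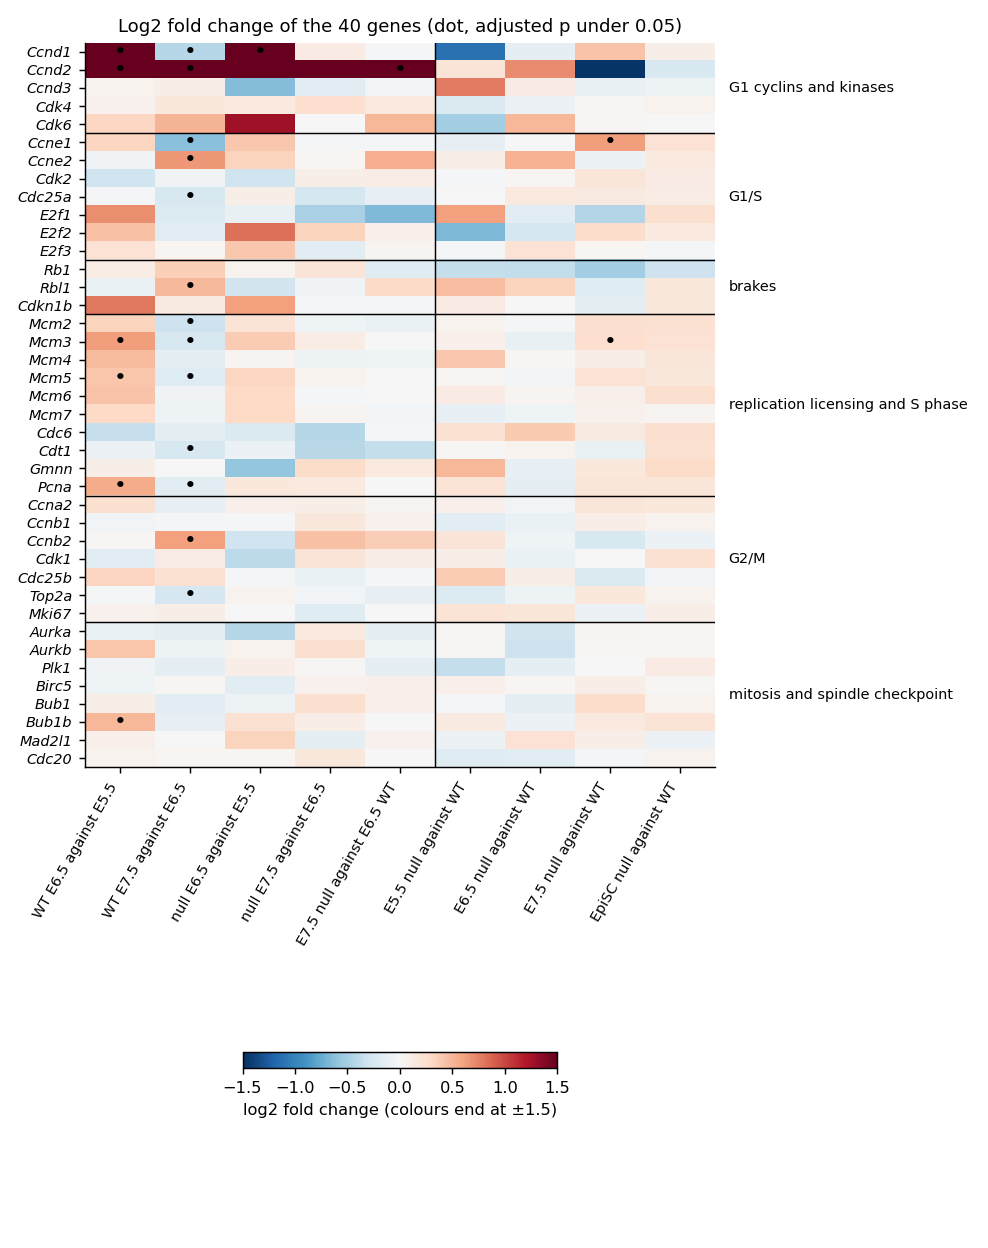
Log2 fold changes of the 40 genes (rows, grouped by role) in the 5 comparisons of stages and the 4 of genotypes (columns, parted by a line), with colours that end at ±1.5 and a dot where the adjusted p was under 0.05. Dots stand in 13 rows for WT E7.5 against E6.5 and in 2, *Ccne1* and *Mcm3*, for E7.5 null against WT.

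E7.5 null epiblasts were also set beside E6.5 WT epiblasts, the earlier stage that the study compared them with. *Ccnd2* alone of the 40 passed, higher in E7.5 null at 41.7, 42.4 and 102 CPM than in E6.5 WT at 5.24 to 20.2 (median 12.1), without overlap (log2 fold change 2.25, SE 0.38, adjusted p = 0.0364), where 0.122% of all 19749 genes tested were higher and 0.122% lower. *Cdt1*, at 79.7, 87.6 and 76.3 against 90.6 to 122 (median 106), did not overlap but failed the test (log2 fold change -0.36, SE 0.09, adjusted p = 0.153), and *Ccnb2*, at 49.1, 46.0 and 49.3 against 32.9 to 46.8 (median 35.3), overlapped and failed it too (log2 fold change 0.36, SE 0.13, adjusted p = 0.35). *Ccne1* had a log2 fold change of -0.02 and *Mcm2* of -0.10. The median absolute log2 fold change of the 40 was 0.07, beside 0.13 for E7.5 null against E7.5 WT (over all genes 0.28 and 0.32), and both comparisons share the 3 null libraries. *Ccnd2* no longer passed in 7 of its 20 alternatives, among them leaving out any 1 of the 3 null libraries or E6.5 WT 4, 5 or 9. Whether the genotypes differ in the step from E6.5 to E7.5 was tested as an interaction. None of the 40 passed with edgeR, where 0.28% of all 22122 genes tested were positive and 0.276% negative. In edgeR 11 of the 40 had an unadjusted p under 0.05, as had 3129 of all genes tested. DESeq2 called *Rbl1* of the 40, with 282 of all genes tested positive and 565 negative. The smallest p-values were those of *Rbl1* (difference of log2 fold changes -0.54, SE 0.19, adjusted p = 0.167), *Bub1* (log2 fold change 0.39, SE 0.14, adjusted p = 0.179) and *Ccne1* (log2 fold change 0.60, SE 0.23, adjusted p = 0.204). *Rbl1* stood at 29.4, 26.1 and 26.8 CPM in E7.5 null and *Bub1* at 128.4, 137 and 124, with *Bub1* at 91.7 to 125 (median 110.2) in E7.5 WT, 77.95 to 131 (median 112) in E6.5 null and 107 to 153 (median 117) in E6.5 WT. Every one of these groups overlapped another.

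In EpiSCs, which are cells cultured from the postimplantation epiblast, none of the 40 passed between 2 null and 2 WT lines with edgeR or DESeq2. In edgeR 6 of them had an unadjusted p under 0.05, as had 1885 of all 20736 genes tested. Of all genes 0.0434% were higher in null and 0.0868% lower in edgeR, while DESeq2 called 188 genes higher and 339 lower. *Ccne1* stood at 72.0 and 74.2 CPM in the null lines and 63.3 and 62.5 in the WT lines (log2 fold change 0.21, SE 0.07, adjusted p = 0.42). *Cdk1*, the kinase of mitotic entry, stood at 127 and 130.1 CPM in null and 116 and 104 in WT lines (log2 fold change 0.22, SE 0.08, adjusted p = 0.477). *Bub1b* stood at 198 and 206 CPM in null and 180.2 and 170.3 in WT lines (log2 fold change 0.20, SE 0.07, adjusted p = 0.484). Both null lines were above both WT lines in all 3 genes. That was so for 21 of the 40 and the opposite for 1, *Cdc25b*, where 18.8% of all genes tested lay wholly above and 20.6% wholly below. All 10 licensing and S phase genes had log2 fold changes above 0, from 0.05 to 0.27 with a median of 0.22, and so had 23 of 25 replication fork and nucleotide genes of the wider list (median 0.16), where the median over all genes was -0.01. Summed, the 10 genes came to 2082 ± 44.7 CPM in null and 1831 ± 154 in WT lines (SD, n = 2 each), where WT 8 stood at 1940.0 and WT 13 at 1722. Without WT 13 the median log2 fold change of the 40 was 0.06, against 0.12 with all 4 lines.

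WT EpiSCs and E6.5 WT epiblasts differ in kit and in count table, so their levels are given side by side with no test. Of the 40 genes, 27 had means within 2-fold of each other, 9 were over 2-fold higher in EpiSCs and 4 over 2-fold lower. The largest ratios were those of *Cdk6*, *Ccnd2* and *Rb1*. *Cdk6* stood at 422 and 448 CPM in EpiSCs and 7.28 to 53.6 (median 18.3) in E6.5 epiblasts, 20.3 times the mean. *Ccnd2* stood at 175 and 137 CPM, 11.9 times the E6.5 mean and within the range of E7.5 WT. *Rb1* stood at 47.9 and 68.2 against 2.48 to 10.4 (median 5.13), 9.83 times. Among G2/M genes the ratios were 3.32 for *Ccnb1*, 3.32 for *Ccnb2* and 0.775 to 1.63 for the rest. Among the 8 mitosis genes they were 3.34 for *Mad2l1* and 2.28 for *Bub1*, but 0.316 for survivin (*Birc5*). The remaining mitosis genes were *Aurka* at 0.82, *Aurkb* at 1.15, *Plk1* at 0.686, *Bub1b* at 0.777 and *Cdc20* at 1.23. Geminin (*Gmnn*) stood at 8.77 and 7.21 CPM against 25.5 to 42.5 (median 37.7), and *Ccne1* and *Mcm3* had ratios of 0.363 and 0.412. The ratio of *Cdt1* to its inhibitor *Gmnn*, per kb, was 4.71 ± 0.00519 in WT EpiSCs (SD, n = 2) and 1.35 ± 0.333 in E6.5 WT epiblasts (SD, n = 9). *Cdk4* took 79.3 ± 1.17% of the mRNA per kb of *Cdk4* and *Cdk6* in WT EpiSCs.

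**Figure D5:**
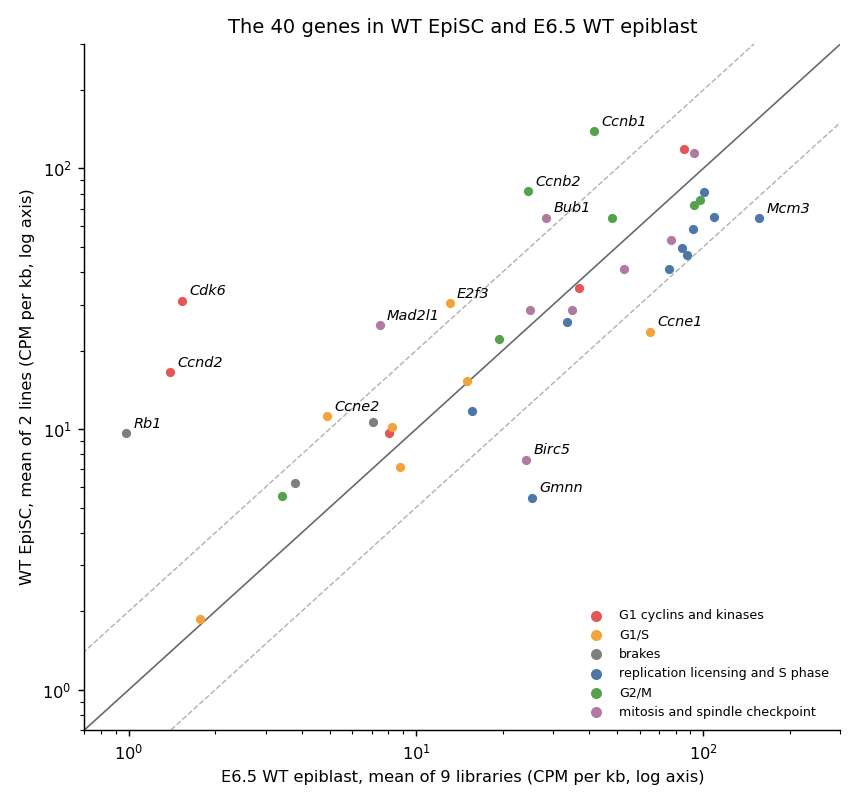
Mean CPM per kb of the 40 genes in 9 E6.5 WT epiblasts (horizontal, log axis) and 2 WT EpiSC lines (vertical, log axis), coloured by role, with the line of equal levels and dashed lines at 2-fold; genes beyond 2-fold are named. *Cdk6*, *Ccnd2* and *Rb1* lie farthest above the line and *Gmnn* farthest below.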

How the data were processed

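RNA-seq of 35 single epiblasts and 4 EpiSC lines was deposited by the authors as 2 tables of un-normalized read counts per gene, each with 47643 genes. The submitters' processing notes name Trim Galore, HISAT2, StringTie and the build GRCm38 (mm10) without their roles, and per the labels epiblast libraries were made with a stranded total RNA kit for low input and EpiSC libraries with another kit. The strand setting and the annotation version are not given in the sources used here. Groups followed the labels, and 0 columns were left unmapped. No 2 epiblast libraries were alike enough to count as 1 (highest correlation of log2 values 0.992). Embryos of a group are separate, but litters are not given, so p-values measure the spread between these embryos.

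The counts were fitted with edgeR 4.0.16 (quasi-likelihood test, robust, TMM scaling, filterByExpr with a minimum count of 10 and a minimum total of 15) in R 4.3.3, on the groups of each comparison only, and p-values were adjusted by the Benjamini-Hochberg method over all genes tested. A gene passed at an adjusted p under 0.05. There were 10 comparisons: null against WT in 4 settings, 2 stage steps in each genotype, E7.5 null against E6.5 WT, and the interaction of genotype with stage. Alternatives were DESeq2 1.42.0, other scaling, filters and weights (limma 3.58.1), a pooled fit, a replicate block, depth, and leaving out single libraries. Those without libraries that stand apart, with visceral endoderm markers, or split by depth except as a term were chosen after the data were seen. The fit was first tried on simulated data for null against WT at E6.5, at E7.5 and in EpiSCs, and for WT E7.5 against E6.5. The other comparisons were not simulated. CPM per kb used the summed exon length of each gene. The limit beside a count of 0 is 3 counts and covers counting error only, as depth does for any count here. Near-identical copies were found with blastn 2.17.0.

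The 40 genes and the gene lists were chosen with earlier results of these data known. Of each comparison, up to 5 higher and 5 lower members that passed are given in full by smallest p, or, where fewer than 3 passed, the 3 with the smallest p, with up to 3 genes in each direction of the wider list.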

Additional observations from a re-analysis of the deposited data

Results flagged for a closer look

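In 26 of 160 groups of 4 to 10 libraries tested across the 40 genes, 1 library lay farther from its group than the 95% limit of a test for single outliers (Dixon), which chance alone passes in about 1 group in 20. Among E5.5 null libraries, CPM that stood apart were *Ccnd2* at 6.10 in null 3 (above 0 to 0.836 in the others) and *Mcm5* at 307 in null 1 (above 271 to 274 in the others). Among E6.5 null libraries, CPM that stood apart were *Ccnd2* at 86.4 in null 2 (above 4.41 to 16.8 in the others), *Ccnd3* at 118 in null 1 (above 64.6 to 76.9 in the others), *Cdk6* at 91.3 in null 3 (above 12.8 to 30.2 in the others), *Cdc25a* at 154 in null 1 (above 123 to 137 in the others) and *E2f1* at 47.5 in null 1 (above 15.6 to 27.9 in the others). Others of the E6.5 null group were *Gmnn* at 16.2 in null 3 (below 31.3 to 41.3 in the others), *Bub1* at 78 in null 2 (below 107 to 131 in the others) and *Cdc20* at 82.1 in null 3 (below 133 to 178 in the others). Among E6.5 WT libraries, CPM that stood apart were *Ccnd3* at 94.7 in WT 2 (above 59.1 to 76.1 in the others), *Cdk6* at 53.6 in WT 1 (above 7.28 to 25.2 in the others), *Ccne2* at 6.74 in WT 1 (below 16.2 to 23.3 in the others), *E2f2* at 17.7 in WT 2 (above 4.51 to 10.4 in the others) and *Mcm4* at 244 in WT 3 (below 345 to 409 in the others). Others of the E6.5 WT group were *Cdc6* at 120.0 in WT 2 (above 66.3 to 89.8 in the others), *Gmnn* at 25.5 in WT 1 (below 35.1 to 42.5 in the others), *Cdc25b* at 3.51 in WT 3 (below 10.3 to 17.0 in the others), *Mki67* at 1140.0 in WT 1 (above 832 to 956 in the others) and *Aurkb* at 99.3 in WT 1 (above 63.8 to 76.3 in the others). Others of the E6.5 WT group were *Bub1b* at 281 in WT 2 (above 196 to 231 in the others). Among E7.5 WT libraries, CPM that stood apart were *Ccne1* at 167 in WT 3 (above 97.2 to 113 in the others), *Cdc25a* at 119 in WT 3 (above 92.3 to 106 in the others), *Mcm2* at 495 in WT 3 (above 393 to 428 in the others), *Top2a* at 847 in WT 3 (above 657 to 741 in the others) and *Aurka* at 103 in WT 3 (above 72.0 to 82.7 in the others).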

How the results depend on the processing

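None of the called genes changed sign under the alternatives run. There were 23 calls, each of 1 gene in 1 comparison, so that some genes count more than once. Of their values under alternatives, 436 kept the call and 116 lost it. The counts of members that passed at E5.5 and in EpiSCs between genotypes (0) stayed at 0 under every alternative. Values below are numbers of the 40 that passed, and the cause of each move was not tested. With an absolute log2 fold change over 1 required, E7.5 null against WT had 0 (from 2), WT E6.5 against E5.5 had 2 (from 6) and WT E7.5 against E6.5 had 1 (from 13). Over all genes tested, 231 of 19680, 1070 of 20763 and 1518 of 17191 met it, in that order. With DESeq2, null E6.5 against E5.5 had 6 (from 1), null E7.5 against E6.5 had 1 (from 0), E7.5 null against E6.5 WT had 2 (from 1) and the interaction had 1 (from 0). Genes that DESeq2 called higher and lower over all tested were 1122 and 683 of 18352, 118 and 275 of 19460, 118 and 259 of 19749, and 282 and 565 of 22122, in that order. With sample quality weights, the counts were 1 for E6.5 null against WT, 10 for E7.5 null against WT, 20 for WT E7.5 against E6.5, 10 for null E6.5 against E5.5, 3 for null E7.5 against E6.5, 2 for E7.5 null against E6.5 WT and 9 for the interaction. Weights also called 41.5% of all genes tested for WT E7.5 against E6.5, 17.9% for E7.5 null against WT, 19.4% for null E6.5 against E5.5 and 13.5% for the interaction. They called 123 genes higher and 61 lower of 17095 for E6.5 null against WT. For null E7.5 against E6.5 these were 653 and 285 of 19460, and for E7.5 null against E6.5 WT 507 and 224 of 19749. With all 35 epiblast libraries in 1 fit, members passing were 0 for E7.5 null against WT, 8 for WT E7.5 against E6.5, 10 for null E6.5 against E5.5 (4 for WT E6.5 against E5.5) and 0 for E7.5 null against E6.5 WT. Of all 24126 genes tested, those higher and lower were 16 and 5, 1872 and 1629, 1665 and 1136 (605 and 831), and 12 and 13, in that order. No filter on low counts gave 0 for null E6.5 against E5.5 (391 of all 28355 genes tested higher and 191 lower). A depth term gave 2 for the interaction (564 of all 22122 genes tested positive and 730 negative). Without the libraries that stand apart, counts were 10 for E7.5 null against WT, 10 for WT E6.5 against E5.5, 2 for null E6.5 against E5.5 and 3 for the interaction. Genes then called higher and lower over all tested were 1374 and 1428 of 19462, 1637 and 1881 of 20499, 775 and 621 of 18804, and 726 and 769 of 21764, in that order. With visceral endoderm markers as a covariate, members passing were 0 for E7.5 null against WT, 1 for WT E6.5 against E5.5, 3 for null E6.5 against E5.5 and 9 for WT E7.5 against E6.5 (5 higher and 4 lower, from 4 and 9). Genes called higher and lower over all tested were 0 and 0 of 19680, 289 and 100 of 20763, 894 and 459 of 18352, and 1812 and 1899 of 17191, in that order. Libraries under 40000000 counts gave 14 for WT E6.5 against E5.5 and 4 for null E6.5 against E5.5. Of all genes tested they gave 2427 higher and 2668 lower of 19967, and 1055 and 1373 of 17609. Leaving out 1 library at a time gave 0 to 10 for E7.5 null against WT, 0 to 10 for WT E6.5 against E5.5, 12 to 15 for WT E7.5 against E6.5, 0 to 4 for null E6.5 against E5.5, 0 to 1 for E7.5 null against E6.5 WT and 0 to 1 for the interaction. Calls over all genes moved as well. E7.5 null against WT had 0 higher and 0 lower without E7.5 null 2, and 1374 and 1428 without E7.5 WT 3. WT E6.5 against E5.5 had 73 and 43 without E5.5 WT 1, and 1637 and 1881 without E6.5 WT 3. For null E6.5 against E5.5, 0 passed without E5.5 null 2 or 4 or E6.5 null 5, 6, 7 or 8. Same-numbered embryos did not deviate together in every pair of any comparison (correlations -0.298 to 0.444), so the numbers were not taken as pairs. At E6.5 the numbers went with depth. Libraries 1, 2 and 3 of both genotypes held over 40000000 counts and all later ones fewer. What else the numbers stand for is not given in the sources used here. A replicate block gave 0 for E7.5 null against WT, WT E6.5 against E5.5 and null E6.5 against E5.5, and 12 for WT E7.5 against E6.5. Over all genes tested, those higher and lower were 0 and 0, 39 and 62, 1 and 1, and 2102 and 1894, in that order. The EpiSC lines share no numbers.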

Other observations

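Inhibitors of cyclin-dependent kinases other than p27 (*Cdkn1b*) are outside the 40 genes. Between WT E6.5 and E7.5, 2 of the 5 tested rose in edgeR's quasi-likelihood test, where 12.7% of all 17191 genes tested were higher: *Cdkn1c*, which encodes p57, by a log2 fold change of 2.202 (SE 0.38, adjusted p = 0.000411), at 9.16 to 46.9 (median 13.1) CPM at E6.5 and 14.3 to 115 (median 81.7) at E7.5 with overlap, and *Cdkn2a* by 3.50 (SE 1.05, adjusted p = 0.0182), at most 0.602 CPM in any E6.5 library and 0 to 3.01 (median 2.08) at E7.5, levels close to no reads. In E7.5 null epiblasts *Cdkn1c* lay at 15.4 to 23.2 CPM, and its log2 fold change against WT, -2.003 (SE 0.53, adjusted p = 0.0692), did not pass. *Cdkn1a*, which encodes p21, lay at 1.32 to 3.43 CPM in E7.5 null and 1.18 to 13.4 in E7.5 WT epiblasts and did not pass either (log2 fold change -1.68, SE 0.58, adjusted p = 0.117). In EpiSCs, from the other kit, it lay at 193 to 234 CPM in WT and 143 to 184 in null lines.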
